A study of Mus musculus with 35 samples.

Results

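The comparison described here follows gene expression in the lumbar motoneurons of SOD1 G93A mice from week 11, before motor onset, to week 15, when motor impairment is present, with the later mice carrying vehicle pumps. Its members are all transcripts (probe sets) of the Affymetrix mouse array that name 1 gene, which were 34945 of the 45101 probe sets and stood for 18193 genes. Of these, 25580 probe sets of 14256 genes passed a filter on low and invariant values and were tested. The arrays compared were those of 8 SOD1 mice at week 11 and 7 vehicle-treated SOD1 mice at week 15, out of 35 arrays in all. Another 7 arrays, of SOD1 mice treated with G-CSF until week 15, were not compared. They entered the filter, the mean levels and the spread shared by all groups in the tests.

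Motoneurons were cut out of lumbar spinal cord sections by laser, their RNA was amplified, and the RNA of each mouse was hybridised to 1 array. All SOD1 mice were females of the B6.Cg-Tg(SOD1-G93A)1Gur/J line, which carries the human SOD1 gene with the G93A exchange under its own regulatory sequence, so that the transgene is active in all cells and not in motoneurons alone. Wild-type (WT) littermates on the C57BL/6 background were sampled at week 11 (n = 6) and at week 15 (n = 7). The SOD1 mice of week 15 received vehicle from subcutaneous osmotic pumps from week 11 on, and no untreated SOD1 mice of week 15 were among the samples. Age, cohort and, in SOD1 mice, the pump therefore changed together and cannot be told apart, and the WT difference between the same weeks was used as the reference for age and cohort. A week difference is always given as week 15 minus week 11 on the log2 scale. A transcript was called when p was under 0.05, the Benjamini-Hochberg adjusted p was under 0.1 and the change was at least 1.5-fold in limma, and "rose" and "fell" are used of called transcripts alone.

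Large motoneurons carry long axons and depend on steady protein folding, on the disposal of damaged protein by the proteasome and by autophagy, and on mitochondrial energy supply. Mutant SOD1 misfolds, and cell culture and mouse work has tied its aggregates to chaperones such as Hspb8 and Bag3. In mutant SOD1 mice fast motoneurons, which innervate the strongest muscle fibres, lose their muscle contacts first, and microglia and astrocytes around motoneurons become reactive.

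The samples carried the RNA of motoneurons, together with that of neighbouring cells. All 11 general neuron markers and 10 of 12 motoneuron markers lay above the array median in each of the 15 SOD1 mice, whereas the choline acetyltransferase gene Chat, a defining motoneuron marker, was near the array median, with 2.57 to 4.76 at week 11 and 2.59 to 5.0 at week 15. Markers of neighbouring cells were also present, with 8 of 10 interneuron, 8 of 12 astrocyte, 10 of 12 oligodendrocyte, 8 of 17 microglia and 4 of 11 endothelial markers above the median in all 15 mice. So were 4 of 6 lymphocyte markers, so that lying above the median is a weak criterion of presence. The markers of red blood cells did not pass the filter. Of 9 tested endothelial genes and 1 tested lymphocyte gene, 0 were called. In such samples fewer cells of a type and less RNA per cell cannot be told apart. Array medians lay between 3.19 and 3.47. The standard deviation of an array was 2.347 to 2.375 in SOD1 mice of week 11 and 2.087 to 2.265 in the vehicle-treated mice, without overlap (exact permutation test, two-sided, p = 0.000155, adjusted p = 0.000725 over 14 tests), and its WT change of -0.011 had p = 0.858. The middle 18S control transcript was higher at week 15 by 2.08 in SOD1 mice and by 3.01 in WT mice, and the 3′ to 5′ difference of the Actb control by 0.78 and 0.63. The part of these measures in the gene results was not tested. Vehicle-treated mice 3 and 5 and WT mouse 6 of week 11 stood apart from the others, and results that rest on them are also given without them.

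Between the weeks, 2724 transcripts rose and 5287 fell in SOD1 mice, which were 8.69% and 16.9% of the 31352 tested. In WT mice 1033 rose and 710 fell (3.29% and 2.26%). The SOD1 change differed from the WT change in 244 transcripts in the upward direction and 675 in the downward direction (0.778% and 2.15%). After a further quantile normalization the SOD1 numbers were 2977 and 3797, and the transcripts differing from WT numbered 140 and 188. The level of the 18S 3′ control transcript was higher at week 15 by 2.30 in WT mice. In SOD1 mice its difference was 0.68, with overlapping groups (exact permutation test, adjusted p = 0.132). With this level as a covariate, 1 and 2 transcripts differed from WT. Nearly every call of a difference from WT given below was lost under that setting, 44 of the 46 named ones among them. The difference from WT rested on single arrays more than the SOD1 change did, because without WT mouse 6 of week 11 the numbers were 28 and 155, against 2414 to 2946 risen and 4788 to 5426 fallen in SOD1 mice with each of the 28 mice left out in turn. Read at the brightest probe set of each gene, 847 genes rose and 3095 fell in SOD1 mice, or 5.94% and 21.7% of 14256, and the change differed from WT upward in 0.779% and downward in 2.51% of genes.

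Many of the transcripts called in WT mice were called in the same direction in SOD1 mice. Of 1892 risen transcripts naming 1 gene, 425 also rose in WT mice, which was 22.5% of the SOD1 transcripts and 49.2% of the 863 WT transcripts. Of 4909 that fell, 452 fell in WT mice too, or 9.21% of the SOD1 transcripts and 71.1% of the 636 WT transcripts. Across the 25580 transcripts the week differences of both genotypes had a Pearson correlation of 0.494, a description across genes, which are not independent replicates. The scatter of both week differences shows this shared axis and the larger spread in SOD1 mice, with a standard deviation of 0.67 against 0.473.

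**Figure D1:**
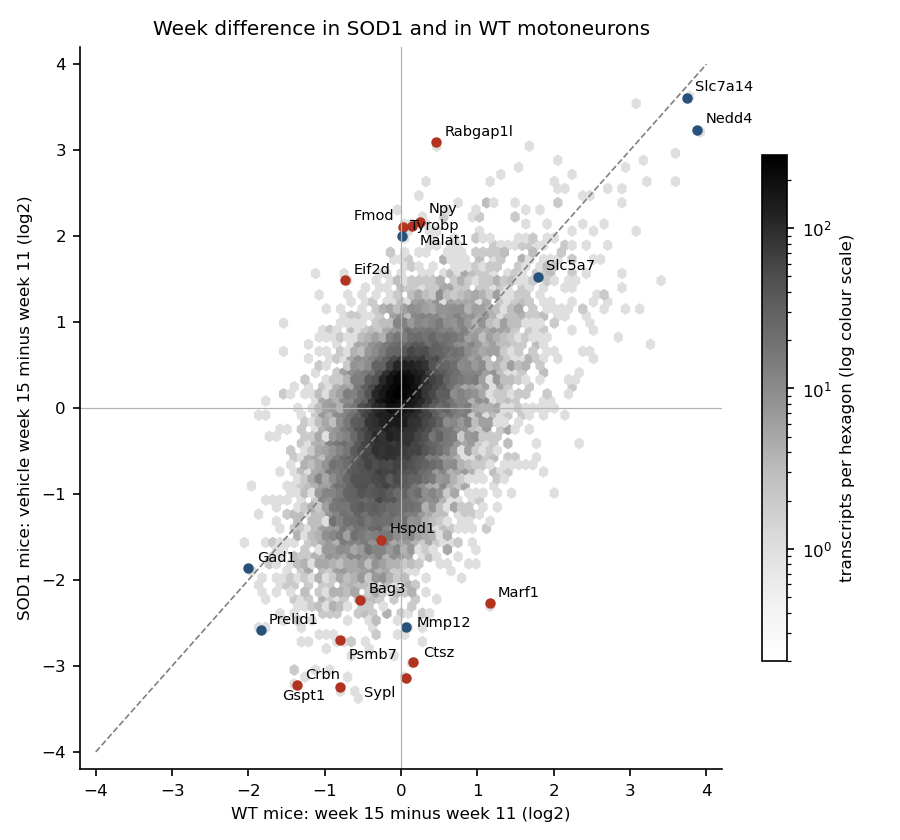
Each transcript naming 1 gene is placed by its week 15 minus week 11 difference in WT mice (horizontal axis, log2) and in SOD1 mice (vertical axis, log2), with shading for the number of transcripts and named genes labelled. The 25580 transcripts spread more widely along the SOD1 axis (SD 0.67) than along the WT axis (SD 0.473).

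The calls were not spread evenly over brightness. In the dimmest 20% of transcripts by mean level the median SOD1 difference was 0.17, and 4.46% rose and 1.54% fell, whereas in the brightest 20% the median was -0.41, and 8.48% rose and 37.3% fell. In WT mice the medians of the 5 brightness classes lay between -0.05 and -0.01. Without the 3 arrays that stood apart they ran from 0.04 in the dimmest to -0.14 in the brightest class, against 0.12 and -0.37 in SOD1 mice. After quantile normalization the SOD1 medians of the dimmest and brightest classes were 0.04 and -0.14, and 22.6% of the brightest class fell. Of the 4039 genes whose brightest transcript lay in the brightest 20%, 322 rose and 1488 fell (7.97% and 36.8%), and this is the count beside which the lists of highly expressed genes are read below.

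**Figure D2:**
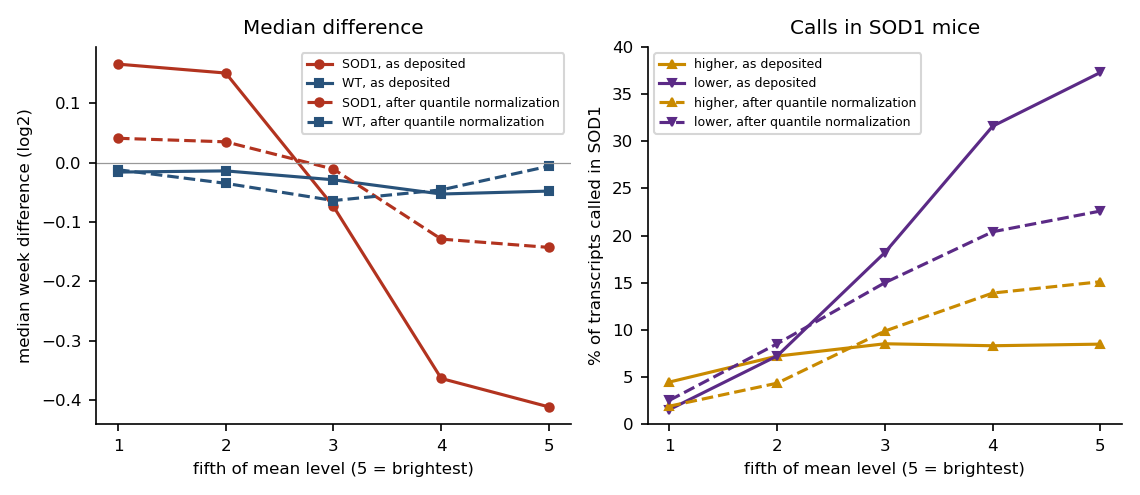
The share of transcripts that rose or fell and the median week difference (log2) in SOD1 and WT mice are plotted over 5 classes of the mean level with equal numbers of transcripts, from dim to bright. In SOD1 mice the share that fell grew from 1.54% to 37.3% between the dimmest and the brightest class.

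Of 21 tested heat shock chaperones, which fold and refold proteins, 14 fell and 0 rose in the vehicle-treated mice, with a median of -0.97 against -0.10 over all genes tested and -0.41 over the brightest 20%, to which 20 of the 21 belonged. After quantile normalization 12 fell, and without the 3 arrays that stood apart 14 fell. The change was called as more negative than the WT change in 9 of them, but in 4 after quantile normalization, 5 without vehicle-treated mouse 3 and 3 without the 3 arrays, where 5 fell in WT mice instead of 1. Hspd1, the mitochondrial chaperonin, was 12.02 to 12.51 at week 11 (median 12.24) and 9.91 to 11.28 at week 15 (median 10.97). All 7 vehicle-treated mice lay below all 8 mice of week 11, while WT mice stayed between 11.11 and 11.9 at both weeks. The fall was 1.53 on the log2 scale (SE 0.18), or 2.88-fold (limma, adjusted p = 3.17e-07), and its difference from the WT change was -1.27 (adjusted p = 0.0263). Bag3, a partner of Hsp70 in chaperone-assisted autophagy, was 8.85 to 9.99 at week 11 (median 9.3) and 6.03 to 8.33 at week 15 (median 7.06). The groups did not overlap, and the fall of 2.23 (SE 0.31, adjusted p = 4e-06) was 4.69-fold. Hspb8, the small heat shock protein that acts with Bag3, was 10.17 to 10.68 at week 11 (median 10.6) and 5.28 to 9.84 at week 15 (median 9.5). The groups were separate, but the lowest value was that of vehicle-treated mouse 3 alone, and the fall of 1.70 (SE 0.41, adjusted p = 0.00264) was not called as different from WT. Stip1, which hands clients from Hsp70 to Hsp90, fell by 1.63 (SE 0.22, adjusted p = 3.96e-06). The other called members were Hspb1, Hspe1, Dnaja1, Hspa4l, Dnajb6, Ahsa1, Hspa1b, Chordc1, Hspa8 and Dnajb4, with differences from -1.47 to -0.66. Hspa1b fell at all 3 of its transcripts, by 0.97 to 1.99.

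Chaperone genes are activated by heat shock factors, which bind repeats of an inverted 5-base unit. The promoters of the chaperone list were therefore searched for 3 successive units, GAANNTTCNNGAA or TTCNNGAANNTTC on either strand with overlapping matches allowed, in RefSeq windows from 250 bases before to 50 bases after the gene start (build GRCm38.p6). The motif was in 5 of the 17 chaperone genes with an entry (29.4%), in 198 of 32851 promoters of any gene (0.603%) and in 63 of 11444 tested genes with an entry (0.551%). The 5 genes were Hspd1, Hspe1, Dnajb6 and Chordc1, which fell, and Hsph1, which was not called. Bag3, Hspb8, Stip1, Hspb1, Dnaja1, Hspa4l, Ahsa1, Hspa1b and Dnajb4 had no motif in their windows and fell as well. Dnajb1, Hspa1a and, at its brightest transcript, Hspa4 also lacked it and were not called. Falls were thus found with and without the motif. The windows of 3 are shown because they carry the motif and belong to members that fell, with the bases of the motif in capitals. Hspe1 (chr1:55087898-55088197, plus strand) faces Hspd1, whose minus-strand window chr1:55087883-55088182 overlaps it and holds the same motif bases. Dnajb6 lies at chr5:29735648-29735947 (plus strand) and Chordc1 at chr9:18292017-18292316 (plus strand). A match is a description of the letters and does not show that a factor bound there.
Hspe1: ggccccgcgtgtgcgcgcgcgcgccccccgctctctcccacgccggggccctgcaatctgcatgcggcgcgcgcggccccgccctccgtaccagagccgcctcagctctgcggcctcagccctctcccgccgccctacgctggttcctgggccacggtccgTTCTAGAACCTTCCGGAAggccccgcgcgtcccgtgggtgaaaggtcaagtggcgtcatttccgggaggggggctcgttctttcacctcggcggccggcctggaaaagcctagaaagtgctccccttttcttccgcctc
Dnajb6: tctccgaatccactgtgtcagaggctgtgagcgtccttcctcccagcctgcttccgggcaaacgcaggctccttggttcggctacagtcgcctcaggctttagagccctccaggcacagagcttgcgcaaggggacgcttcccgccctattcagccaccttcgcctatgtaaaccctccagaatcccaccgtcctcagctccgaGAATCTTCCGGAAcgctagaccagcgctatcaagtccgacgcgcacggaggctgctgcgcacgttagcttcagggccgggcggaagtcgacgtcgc
Chordc1: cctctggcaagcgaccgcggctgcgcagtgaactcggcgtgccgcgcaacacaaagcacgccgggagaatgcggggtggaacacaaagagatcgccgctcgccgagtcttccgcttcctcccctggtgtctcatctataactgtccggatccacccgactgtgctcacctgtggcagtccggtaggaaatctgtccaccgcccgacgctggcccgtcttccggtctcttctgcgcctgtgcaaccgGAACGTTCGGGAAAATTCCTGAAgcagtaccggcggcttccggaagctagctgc
In the first window 2 overlapping matches form 1 run, in the second there is 1 match, and in the last 3 overlapping matches run across the gene start.

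Of 32 tested subunits and regulators of the proteasome, which degrades proteins tagged with ubiquitin, 22 fell and 1 rose (Psmb3, 0.90), with a median of -0.75, and 15 fell after quantile normalization. In WT mice 0 were called, but 4 fell and 1 rose without the 3 arrays that stood apart. The change differed from WT in 7, in 3 after quantile normalization and in 1 without the 3 arrays. Psmb7, a catalytic subunit, was 9.27 to 10.43 at week 11 (median 9.72) and 6.59 to 7.81 at week 15 (median 6.95). No value was shared between the groups, and the fall of 2.70 (SE 0.31, adjusted p = 3.69e-07) was 6.49-fold. Psmc5, an ATPase subunit of the base, was 8.5 to 9.54 and then 5.88 to 7.97, again without overlap, and fell by 1.74 (SE 0.29), with a difference from WT of -1.69 (adjusted p = 0.0535). Psmd7 of the lid fell by 1.95 (SE 0.27) and Psmb4 of the core by 1.70 (SE 0.35), the latter with an overlap of the groups. Psme3, an activator of the proteasome core that was named for its difference from WT, fell by 2.66, while its WT change was 0.09. Among 23 ubiquitin ligases and deubiquitinases, 9 fell (39.1%, beside 36.8% of genes in the brightest class) and 2 rose, with a median of -0.54. To that class 17 of the 23 belonged, and 6 fell after quantile normalization. Uchl1, an abundant neuronal deubiquitinase, was 9.62 to 10.73 at week 11 (median 9.94) and 7.64 to 8.58 at week 15 (median 7.99). All vehicle-treated mice lay lower, and the fall of 2.06 (SE 0.21, adjusted p = 2.99e-08) was larger than in WT mice, where it was 0.68 (difference -1.38, adjusted p = 0.0348). Rnf11, a RING-finger ligase adaptor, fell by 1.33 (SE 0.28), and its WT change was 0.36.

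Autophagy and lysosome genes fell in 15 of 25 with a median of -0.84, and 2 rose (Atg7 and Grn), which were no longer called without vehicle-treated mouse 3. The change differed from WT in 2, Sqstm1 and Atp6v1h, but in 0 after quantile normalization or without the 3 arrays that stood apart. Atg5, which is needed to conjugate autophagosome proteins, was 7.89 to 8.7 at week 11 (median 8.41) and 4.01 to 7.74 at week 15 (median 6.66). The groups were separate, and the fall was 2.04 (SE 0.45, adjusted p = 0.00102). Atp6v1a, a subunit of the proton pump that acidifies lysosomes, fell by 1.87 (SE 0.26) and also fell in WT mice by 1.02. Gabarap and Atg12, both of the conjugation systems, fell by 1.81 and 1.59. Of 24 genes of folding and degradation in the endoplasmic reticulum (ER), 10 fell and 2 rose (Hsp90b1, 0.69, and Pdia4, 0.66), with a median of -0.62, and 6 fell and 4 rose after quantile normalization. Herpud1, a component of ER-associated degradation, was 6.86 to 7.37 at week 11 and 4.88 to 6.09 at week 15. It fell in all vehicle-treated mice, by 1.58 (SE 0.24, adjusted p = 1.6e-05), and beyond WT (-1.15, adjusted p = 0.0958). Xbp1, a transcription factor of the ER stress response, fell by 1.58 (SE 0.41) with overlapping groups.

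**Figure D3:**
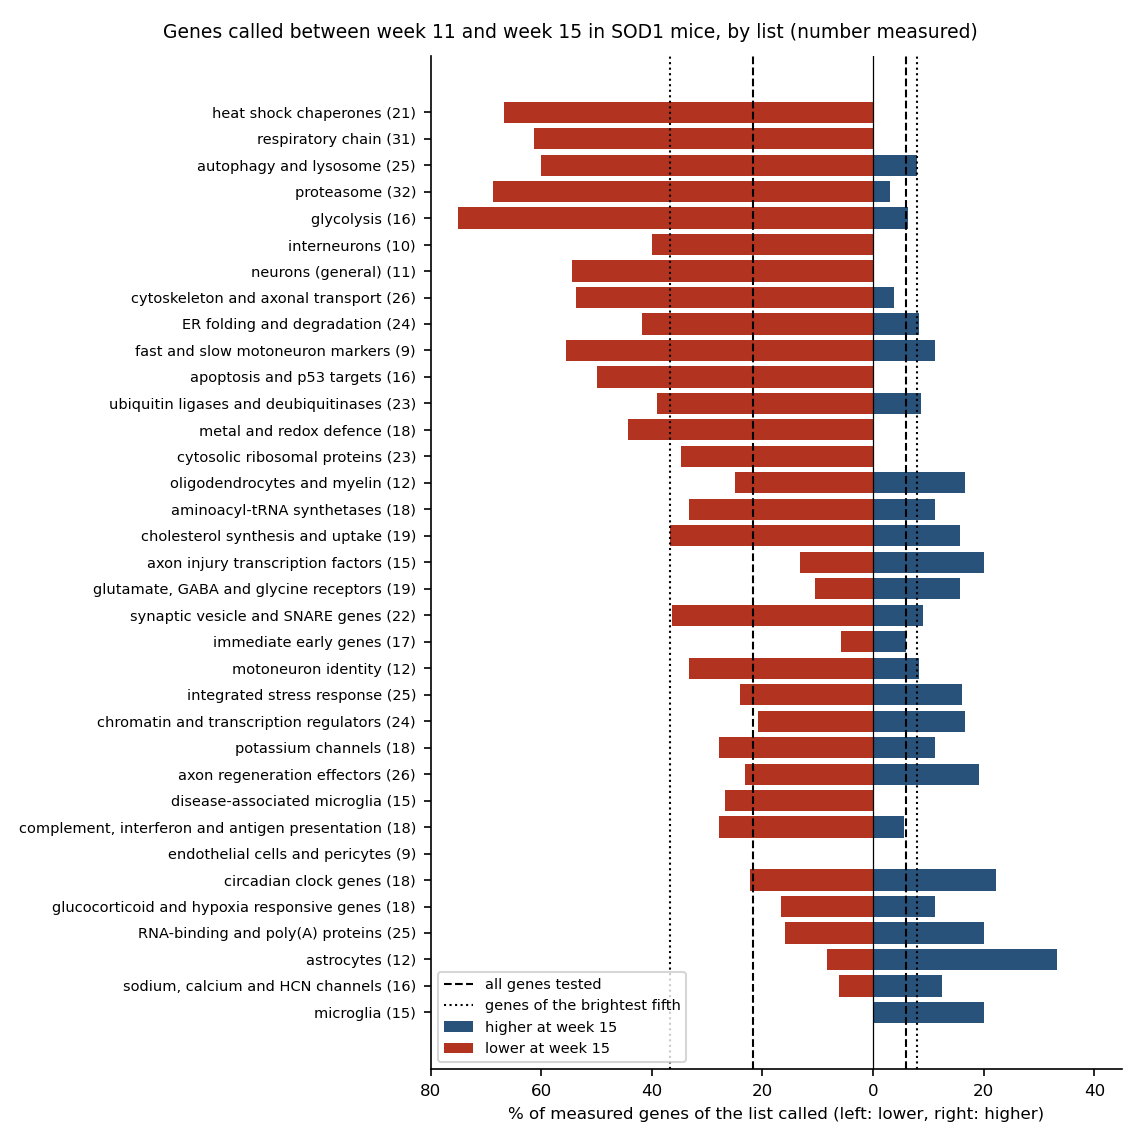
For each gene list the share of measured genes that fell (left) or rose (right) between week 11 and week 15 in SOD1 mice is drawn, in percent, at the brightest transcript of each gene, with lines for all genes tested and for the brightest 20%. Chaperones, proteasome, respiratory chain, autophagy and glycolysis lie beyond both lines on the side of falls. So do further lists, among them general neuron, fast and slow motoneuron, cytoskeleton, apoptosis, ER and interneuron genes. Astrocyte and microglia markers lie beyond both lines on the side of rises, but they are not particular in this. Many other lists do too, among them injury transcription factors, regeneration effectors, circadian genes and RNA-binding genes.

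Genes of energy metabolism had falls in both genotypes. Of 31 respiratory chain subunits 19 fell and 0 rose (median -0.88), against 4 that fell in WT mice. Without the 3 arrays that stood apart these were 20 and 12. The change differed from WT in 1, Uqcrc1. Atp5b, the catalytic subunit of ATP synthase, was 10.14 to 10.97 at week 11 (median 10.81) and 6.39 to 9.39 at week 15 (median 8.75). The groups did not meet, and the fall of 2.20 (SE 0.35, adjusted p = 2.55e-05) stood beside a WT fall of 1.43. Sdhd, a membrane anchor of complex II, fell by 2.18 (SE 0.39), Ndufb5 of complex I by 1.74 (SE 0.23) and Uqcrfs1, the iron-sulfur protein of complex III, by 1.54 (SE 0.24). Of 16 glycolysis genes 12 fell and 1 rose, the glucose transporter gene Slc2a1 (0.94), with a median of -0.74. After quantile normalization 6 of these fell. Pgk1 was 11.66 to 12.16 and then 10.26 to 11.44 without overlap, and fell by 1.17 (SE 0.2, adjusted p = 5.45e-05). Cytosolic ribosomal proteins fell in 8 of 23 genes in SOD1 mice (34.8%, beside 36.8% of the brightest 20%) and in 6 of 23 in WT mice. The medians were -0.45 and -0.37, and 0 differed between genotypes. Rps9 fell most, by 2.39 in SOD1 and by 1.57 in WT mice, although another of its transcripts was called in the opposite direction.

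Neuronal markers fell in part. Of 11 general neuron markers 6 fell and 0 rose (median -0.62), or 4 without vehicle-treated mouse 3, and the list mean was 10.62 to 10.97 at week 11 and 9.29 to 10.38 at week 15 without overlap. Stmn2, a growth-associated tubulin regulator, was 11.4 to 11.94 at week 11 (median 11.64) and 9.18 to 10.86 at week 15 (median 10.49). The groups were separate, and the fall was 1.32 (SE 0.23, adjusted p = 9.74e-05). Nefm, the medium neurofilament, fell by 1.11 (SE 0.28). Nefl, the light one, fell by 0.62 (SE 0.16) at a dimmer transcript, while its brightest was 13.29 to 13.53 over all 15 SOD1 mice and did not pass the filter on invariant values. Of 12 motoneuron identity genes 4 fell (33.3%, beside 21.7% of all genes tested and 36.8% of genes in the brightest class) and 1 rose. Slc18a3, the vesicular acetylcholine transporter, was 4.62 to 6.88 at week 11 (median 5.77) and 3.51 to 4.37 at week 15 (median 4.01). No vehicle-treated mouse reached the range of week 11, and the fall of 1.92 (SE 0.26, adjusted p = 3.05e-06) was accompanied by a WT fall of 0.88. Slc5a7, the choline transporter, rose by 1.53 (SE 0.4) in SOD1 and by 1.79 in WT mice. The intermediate filament gene Prph fell by 1.13 (SE 0.25) at its brightest transcript. Its other tested transcripts differed in the opposite direction, by 0.41 to 0.57, and were not called. Isl1, a motoneuron transcription factor, was 7.0 to 9.11 and then 7.21 to 8.81, with a difference of 0.02 (SE 0.32, adjusted p = 0.968).

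Among 9 markers of fast or slow motoneurons 5 fell and 1 rose. Chodl, a marker of fast motoneurons, was 8.99 to 11.0 in SOD1 mice of week 11 (median 9.88) and 7.28 to 9.29 in vehicle-treated mice (median 8.37). The groups overlapped, whereas WT mice lay at 10.57 to 11.29 and 11.09 to 11.61. The fall was 1.42 (SE 0.32, adjusted p = 0.00117), or 2.67-fold, and differed from the WT change by -1.78 (adjusted p = 0.0628). Mmp9, a metalloproteinase of vulnerable fast motoneurons, was 6.52 to 7.73 and then 5.55 to 6.81, with a little overlap. It fell by 1.13 (SE 0.27), against a WT difference of 0.39 that was not called. Kcnq5, a potassium channel subunit, fell by 1.52 (SE 0.45) and differed from WT by -2.44 (adjusted p = 0.0662). Sv2b, a synaptic vesicle protein, fell by 1.28 (SE 0.28). The nuclear receptor gene Esrrg fell by 0.60, and the serotonin receptor gene Htr1d rose by 0.61. The difference from WT was called in 3 of the 9, but in 0 after quantile normalization.

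**Figure D4:**
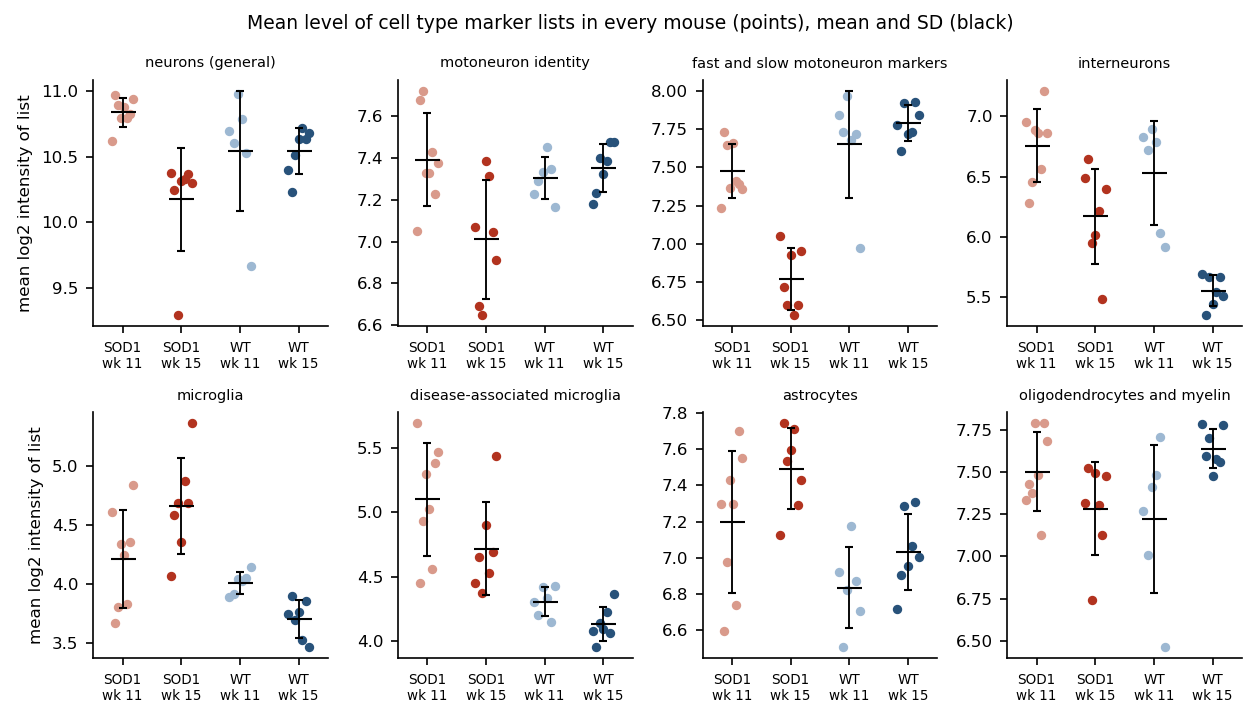
The mean log2 level of each cell type marker list (vertical axis) is plotted for every mouse as a point in the 4 groups, with the mean and SD in black. The general neuron markers of vehicle-treated mice (9.29 to 10.38) lie below those of SOD1 mice at week 11 (10.62 to 10.97), and the fast and slow markers do too (6.54 to 7.05 against 7.23 to 7.73).

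Some microglia and astrocyte markers rose. Of 15 microglia markers 3 rose and 0 fell, with a median of 0.37. Tyrobp, an adaptor of microglial receptors, was 3.24 to 5.97 at week 11 (median 4.25) and 3.8 to 8.52 at week 15 (median 6.27). The groups overlapped, WT mice stayed between 3.04 and 4.31, and the rise was 2.00 (SE 0.59, adjusted p = 0.011). C1qb of complement and Lyz2, a myeloid lysozyme, rose by 1.17 (SE 0.39) and 1.09 (SE 0.4). Csf1r, the receptor that microglia need to survive, had a difference of 0.88 (SE 0.45, adjusted p = 0.135). Of 15 disease-associated microglia genes 4 fell (26.7%, beside 21.7% of all genes tested) and 0 rose, with a median of -0.06, and at their brightest transcripts 0 differed from WT. Mmp12, a macrophage elastase, was 2.18 to 8.17 at week 11 (median 7.17) and 2.57 to 5.9 at week 15 (median 2.95). At week 11 the SOD1 mice varied widely, and the fall of 2.55 (SE 0.7, adjusted p = 0.00685) ended near the WT range of 2.08 to 2.73. Apoe, a lipid carrier, fell by 1.71 (SE 0.35) without overlap. Ctsz, a lysosomal cathepsin, was 4.94 to 6.61 at week 11 (median 5.8) and 2.11 to 3.86 at week 15 (median 2.8). No vehicle-treated mouse reached the values of week 11, and WT mice lay at 2.67 to 3.62 and 2.68 to 4.36. Its fall of 2.95 (SE 0.29, adjusted p = 2.22e-08) at this transcript differed from WT by -3.11 (adjusted p = 0.00025). It ended near the background of the arrays, where no fold is given, and the other 2 Ctsz transcripts fell by 1.06 and 1.83.

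Among 12 astrocyte markers 4 rose and 1 fell, or 2 and 2 without vehicle-treated mouse 3. Gfap, the astrocyte intermediate filament, was 4.15 to 8.37 at week 11 (median 6.93) and 6.54 to 9.5 at week 15 (median 8.69). Both SOD1 groups overlapped each other and lay mostly above WT mice, which were at 3.86 to 5.73 and 3.48 to 6.24. The rise was 1.77 (SE 0.55, adjusted p = 0.0153), or 3.4-fold, and its difference from WT was 1.55 (adjusted p = 0.302). Slc1a3, an astrocyte glutamate transporter, rose by 1.05 (SE 0.3), and the calcium-binding S100b fell by 0.82 (SE 0.15). Of 12 oligodendrocyte and myelin genes 2 rose (Mbp and Cnp) and 3 fell (Ugt8a, Mal and Olig1), but 0 fell after quantile normalization and 1 without vehicle-treated mouse 3. The WT differences were 0.58 for Mbp and 0.60 for Cnp. Mbp and Cnp each had another transcript that fell, by 0.85 and 1.19, and Mal had another that rose, by 1.39. Of 10 interneuron genes 4 fell in SOD1 and 3 in WT mice, and 0 differed between them. Gad1, an enzyme of GABA synthesis, fell by 1.86 in SOD1 and 2.00 in WT mice. The part of these marker shifts in the other gene results was not tested.

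Genes of axon injury and regeneration moved in both directions. Of 15 injury transcription factors 3 rose and 2 fell. Sox11, a developmental and regeneration factor, was 4.56 to 7.54 at week 11 (median 6.05) and 7.23 to 9.88 at week 15 (median 8.12). The groups overlapped slightly, and the rise was 2.22 (SE 0.58, adjusted p = 0.00448), with 2 further Sox11 transcripts risen and 1 fallen. Klf7, a growth-promoting zinc finger factor, rose by 1.15 in SOD1 and by 1.00 in WT mice. Atf3, the common marker of axon injury, was 4.71 to 8.56 and then 4.84 to 7.57, with a difference of -0.76 (SE 0.49, adjusted p = 0.244). Sprr1a, a regeneration protein, was 2.69 to 8.97 and 5.85 to 8.08, with a difference of 0.61 (adjusted p = 0.501). Of 26 regeneration effectors 5 rose and 6 fell. Npy, a neuropeptide that injured neurons make, was 3.54 to 4.4 at week 11 (median 3.84) and 4.15 to 7.93 at week 15 (median 6.57). Most vehicle-treated mice lay above all others, WT mice stayed between 3.35 and 4.32, and the rise was 2.17 (SE 0.34, adjusted p = 2.42e-05), with a difference from WT of 1.92 (adjusted p = 0.0628). Timp1, an inhibitor of metalloproteinases, rose by 1.80 (SE 0.41), and Cd44, a hyaluronan receptor, by 1.69 (SE 0.59). Nrn1, a neurite-promoting protein, fell by 1.54 (SE 0.46).

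The integrated stress response, which raises Atf4 and amino acid synthesis when translation initiation is held back, did not move as a unit. Of 25 genes 4 rose and 6 fell. Phgdh, the first enzyme of serine synthesis, was 6.97 to 8.57 at week 11 (median 7.63) and 7.79 to 9.76 at week 15 (median 8.78). It rose by 1.14 (SE 0.39, adjusted p = 0.0261) in SOD1 and by 1.21 in WT mice, which started lower, at 3.47 to 5.34, and ended at 5.41 to 6.27. Asns, which makes asparagine, was 9.71 to 10.79 at week 11 and 8.59 to 9.63 at week 15. It fell without overlap by 1.26 (SE 0.18, adjusted p = 5.88e-06) at this transcript. The other tested Asns transcript (mean level 9.57) differed by 0.39 in SOD1 mice and was not called. Stbd1, a glycogen-binding protein, fell by 2.05 (SE 0.45), and Cebpg, a partner of Atf4, by 1.31 (SE 0.37). Ddit3, the proapoptotic factor of this response, was 7.46 to 9.27 and then 7.62 to 8.63, with a difference of -0.28 (SE 0.19, adjusted p = 0.277). Of 18 aminoacyl-tRNA synthetases 6 fell (33.3%, beside 36.8% of the brightest 20%) and 2 rose. Kars, which charges lysine tRNA, was 6.77 to 7.47 and then 3.46 to 6.22, without overlap, and fell by 2.15 (SE 0.44).

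Excitability and synapse genes were split. Of 16 sodium, calcium and HCN channel genes 2 rose and 1 fell. Cacna1a, the P/Q-type calcium channel, was 4.28 to 6.81 at week 11 (median 5.6) and 6.81 to 8.16 at week 15 (median 7.7). It rose by 1.96 (SE 0.34, adjusted p = 8.35e-05) in SOD1 and by 1.72 in WT mice. Cacna2d3, a calcium channel auxiliary subunit, fell by 1.12 (SE 0.22), against a WT difference of -0.09. Of 18 potassium channels 5 fell and 2 rose, but 2 fell and 4 rose after quantile normalization. Of 19 glutamate, GABA and glycine receptors 3 rose and 2 fell. Glra1, the adult glycine receptor, rose by 1.26 in SOD1 and by 1.48 in WT mice. Of 22 synaptic vesicle and SNARE genes 8 fell (36.4%, beside 36.8% of genes in the brightest class) and 2 rose. Vamp1, the vesicle SNARE of motor terminals, was 11.04 to 11.96 and then 9.47 to 10.62. The groups were separate, and the fall of 1.38 (SE 0.26, adjusted p = 0.000176) differed from WT by -1.23 (adjusted p = 0.0958). Of 26 cytoskeleton and axonal transport genes 14 fell and 1 rose (Tubb2a, 0.94), with a median of -0.62. Tuba4a, an alpha tubulin that carries mutations in familial ALS, was 9.64 to 10.05 at week 11 and 8.26 to 8.83 at week 15. Its fall of 1.33 (SE 0.13, adjusted p = 2.18e-08) exceeded the WT difference of -0.52 by -0.81 (adjusted p = 0.043).

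The endogenous Sod1 gene, which removes superoxide, was measured by 5 transcripts, and the array annotation names none for the human transgene, so that the genotype labels could not be checked directly. At the called transcript Sod1 was 11.6 to 12.26 at week 11 (median 11.82) and 9.79 to 11.07 at week 15 (median 10.64). All vehicle-treated mice were lower, and the fall was 1.31 (SE 0.16, adjusted p = 1.07e-06), or 2.48-fold, with a difference from WT of -1.0 (adjusted p = 0.0498). The 2 other tested transcripts had differences of 0.46 and 0.54 and were not called. The brightest Sod1 transcript did not pass the filter on invariant values, with 12.58 to 12.81 at week 11 (median 12.69) and 12.18 to 12.63 at week 15 (median 12.4), overlapping. Of 18 metal and redox genes 8 fell and 0 rose. Mt3, the neuronal metallothionein, fell by 1.28 (SE 0.27), Cat, which breaks down peroxide, by 1.22 (SE 0.45), and Gpx1, a glutathione peroxidase, by 1.11 (SE 0.22). Of 16 apoptosis and p53 target genes 8 fell and 0 rose. Pmaip1, a proapoptotic protein, was 3.32 to 6.96 and then 3.16 to 3.86, with overlap, and fell by 2.02 (SE 0.5). Of 18 complement, interferon and antigen presentation genes 5 fell and 1 rose. H2-D1, a class I antigen-presenting molecule, was 7.58 to 8.9 and then 5.28 to 6.97, and H2-K1 was 7.17 to 8.47 and then 5.23 to 6.62. Both fell without overlap, by 2.18 (SE 0.31) and 1.76 (SE 0.24), and B2m, their light chain, fell by 1.16 (SE 0.26).

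RNA-binding proteins and chromatin regulators had rises among their falls. Of 25 RNA-binding and poly(A) genes 5 rose and 4 fell, while 7 rose and 0 fell after quantile normalization and 6 rose and 2 fell without vehicle-treated mouse 3. Hnrnpa1, a splicing factor with mutations in familial ALS, was 6.04 to 6.7 at week 11 (median 6.42) and 7.17 to 8.84 at week 15 (median 7.49). The groups were separate, and the rise was 1.56 (SE 0.27, adjusted p = 6.57e-05), with a difference from WT of 1.83 (adjusted p = 0.0325). The other tested Hnrnpa1 transcripts differed by 0.03 and 0.44 in SOD1 mice and were not called. Pabpn1, the nuclear poly(A)-binding protein, rose by 1.10 (SE 0.13) in SOD1 and by 0.66 in WT mice. Its other tested transcripts differed by -0.34 to -0.20 in SOD1 mice and were not called. Atxn2, a stress granule protein, rose by 1.62 (SE 0.23) in SOD1 and by 0.99 in WT mice. Of 24 chromatin and transcription regulators 4 rose and 5 fell, or 7 and 4 after quantile normalization and 2 and 4 without the 3 arrays. Med7 of the Mediator complex fell by 2.39 (SE 0.32), against a WT difference of -0.38. Of 18 circadian genes 4 rose and 4 fell, but 1 fell without vehicle-treated mouse 3, and 2 rose and 2 fell after quantile normalization. Nr1d2, a repressor of the clock, fell by 1.64 (SE 0.32), and Dbp, a clock output factor, rose by 1.3 (SE 0.41). Of 19 cholesterol genes 7 fell (36.8%, beside 21.7% of all genes tested and 36.8% of genes in the brightest class) and 3 rose. After quantile normalization 3 fell and 3 rose. Fdps, which makes farnesyl diphosphate, fell by 1.76 in SOD1 and by 1.16 in WT mice. Among 17 immediate early genes 1 rose (Nr4a1, 0.63) and 1 fell (Ier3, by 0.62), and among 18 glucocorticoid and hypoxia genes 2 rose and 3 fell.

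The largest rises were mostly shared with WT mice and often came from 1 transcript of a gene. Of 166 named transcripts called in SOD1 mice, 27 had a brighter tested transcript of the same gene. The brightest was called in the same direction in 9, in the opposite direction in 2 and not called in 16. List members and fixed markers were named at their brightest tested transcript. Only genes named for the size of a change or of a difference from WT could therefore be among the 27. Slc7a14, a lysosomal amino acid transporter of neurons, was 2.21 to 4.12 at week 11 (median 3.22) and 5.14 to 8.12 at week 15 (median 7.14). It rose by 3.61 (SE 0.48, adjusted p = 2.34e-06) from a level near background, and by 3.74 in WT mice, whose values were 2.39 to 5.04 and 6.86 to 8.31. Its brighter transcript (mean level 11.18) differed by -0.30 in SOD1 mice and was not called. Nedd4, a ubiquitin ligase, was 5.75 to 7.73 and then 9.09 to 10.38, and rose by 3.24 in SOD1 (SE 0.35) and by 3.88 in WT mice. Another Nedd4 transcript fell by 1.29 in SOD1 mice, so that these transcripts moved apart. Norad, Rapgef6, Ntrk3, Cdkl2, Nfia, Reep3 and Ywhaz also rose in both genotypes at the named transcripts, by 2.68 to 3.57 in SOD1 mice. The brightest transcripts of Norad, Rapgef6, Ntrk3, Nfia and Ywhaz were not called, at -0.51 to 0.0, Cdkl2 fell by 0.69 at its brightest, and 2 further Ywhaz transcripts fell by 0.97 and 1.94. Xist and Herc2 rose by 2.76 and 2.69 and were not called in WT mice, and the differences from WT of 1.24 and 1.40 were not called either. Rabgap1l, a Rab GTPase activator, was 2.23 to 4.62 and then 5.63 to 7.95. It rose by 3.09 (SE 0.45), against a WT difference of 0.46, and the difference was 2.63 (adjusted p = 0.0572), although 2 of its other transcripts fell.

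Rises beyond WT were few. Eif2d, a translation initiation factor, was 4.63 to 5.32 at week 11 (median 4.88) and 5.32 to 6.96 at week 15 (median 6.67). It rose by 1.49 (SE 0.22, adjusted p = 1.32e-05) and fell by 0.73 in WT mice, with a difference of 2.22 (SE 0.33, adjusted p = 0.000921). The call held with each mouse left out and without the 3 arrays, and 2 of the 3 other Eif2d transcripts rose as well. The differences from WT at these 3 were 0.36 to 0.85 and were not called. Malat1, a nuclear long noncoding RNA, was 9.27 to 11.46 at week 11 (median 10.19) and 12.04 to 12.96 at week 15 (median 12.35). The groups were separate, and it rose by 2.12 (SE 0.3, adjusted p = 6.74e-06), or 4.35-fold, against 0.14 in WT mice. The difference from WT was called in this 1 of 7 Malat1 transcripts, and others rose in both genotypes, one by 1.93 in SOD1 and 2.13 in WT mice. Fmod, a matrix proteoglycan, rose at all 5 of its transcripts, by 2.11 (SE 0.39) at the largest, with overlapping groups. All 5 lay near the background, with mean levels of 2.22 to 3.54 beside array medians of 3.19 to 3.47. The difference from WT was called in 2 of the 5. Kcnq1ot1, a noncoding RNA, rose by 2.20, and Dicer1, which cuts microRNA precursors, rose by 0.89 and Ctxn2 by 0.91, the last 2 not called without the 3 arrays.

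The largest falls were mostly not called in WT mice. Gspt1, a translation termination factor, was 6.73 to 7.55 at week 11 (median 7.26) and 2.75 to 5.29 at week 15 (median 3.38). It fell by 3.25 (SE 0.48, adjusted p = 1.06e-05), and 3 of its 5 other transcripts fell too. Crbn, a substrate receptor of a ubiquitin ligase, was 8.31 to 9.54 and then 3.61 to 6.95, and fell by 3.22 (SE 0.36) in SOD1 and by 1.37 in WT mice. Ivns1abp fell by 3.35 (SE 0.67), Rps6ka6 by 3.28 (SE 0.58), the mismatch repair gene Msh6 by 3.11 (SE 0.45), the mitochondrial carrier gene Mtch2 by 3.06 (SE 0.41), Mlf2 by 3.05, Rab24 by 3.01 and the sulfatase-modifying gene Sumf1 by 3.00. Of these, Mlf2 and Sumf1 also fell in WT mice, by 1.15 and 1.39. Hspa4, an Hsp70 exchange factor, was 6.19 to 7.81 and then 3.18 to 6.14 at its named transcript. It fell there by 2.85 (SE 0.44, adjusted p = 1.91e-05), against a WT difference of -0.08, whereas its brightest transcript differed by -0.55 and was under the fold threshold.

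Falls beyond WT included Marf1, an RNase of RNA control, whose level was 6.81 to 8.56 and then 4.06 to 7.3. It fell by 2.27 (SE 0.54) while its WT difference was 1.16, and the difference of -3.43 (SE 0.8, adjusted p = 0.043) was not called without the 3 arrays. Sypl, a synaptophysin-like vesicle protein, fell by 3.14 (SE 0.57), against 0.06 in WT mice, and 1 of its other transcripts rose. Nek4, a kinase, fell by 1.98 and differed from WT by -2.81 (adjusted p = 0.0498). Ik and Cpsf2, both of RNA processing, fell by 2.71 and 1.80 and differed by -2.95 and -2.75. Falls that both genotypes shared included Prelid1, a mitochondrial lipid carrier, which was 7.59 to 8.62 and then 5.01 to 6.35. It fell by 2.58 (SE 0.26, adjusted p = 2.99e-08) in SOD1 and by 1.84 in WT mice at this transcript, while a brighter one (mean level 10.49) differed by 0.44 and 2 others by -0.17 and 0.26, none of them called. The isoleucyl-tRNA synthetase gene Iars fell by 1.98 and 1.84, Papola, a poly(A) polymerase, by 2.09 and 1.90, and Gin1 fell by 2.54 in SOD1 mice and fell by 1.81 in WT mice. The brightest transcripts of Iars and Papola, and those of Ivns1abp, Rps6ka6, Sumf1, Ik and Cpsf2 among the falls above, were not called. Of the 173 named transcripts, 166 were called between the weeks in SOD1 mice, and 157 were also called without the 3 arrays that stood apart. Of the 46 whose change differed from WT, 17 were also called without these arrays and 14 with each mouse left out in turn.

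**Figure D5:**
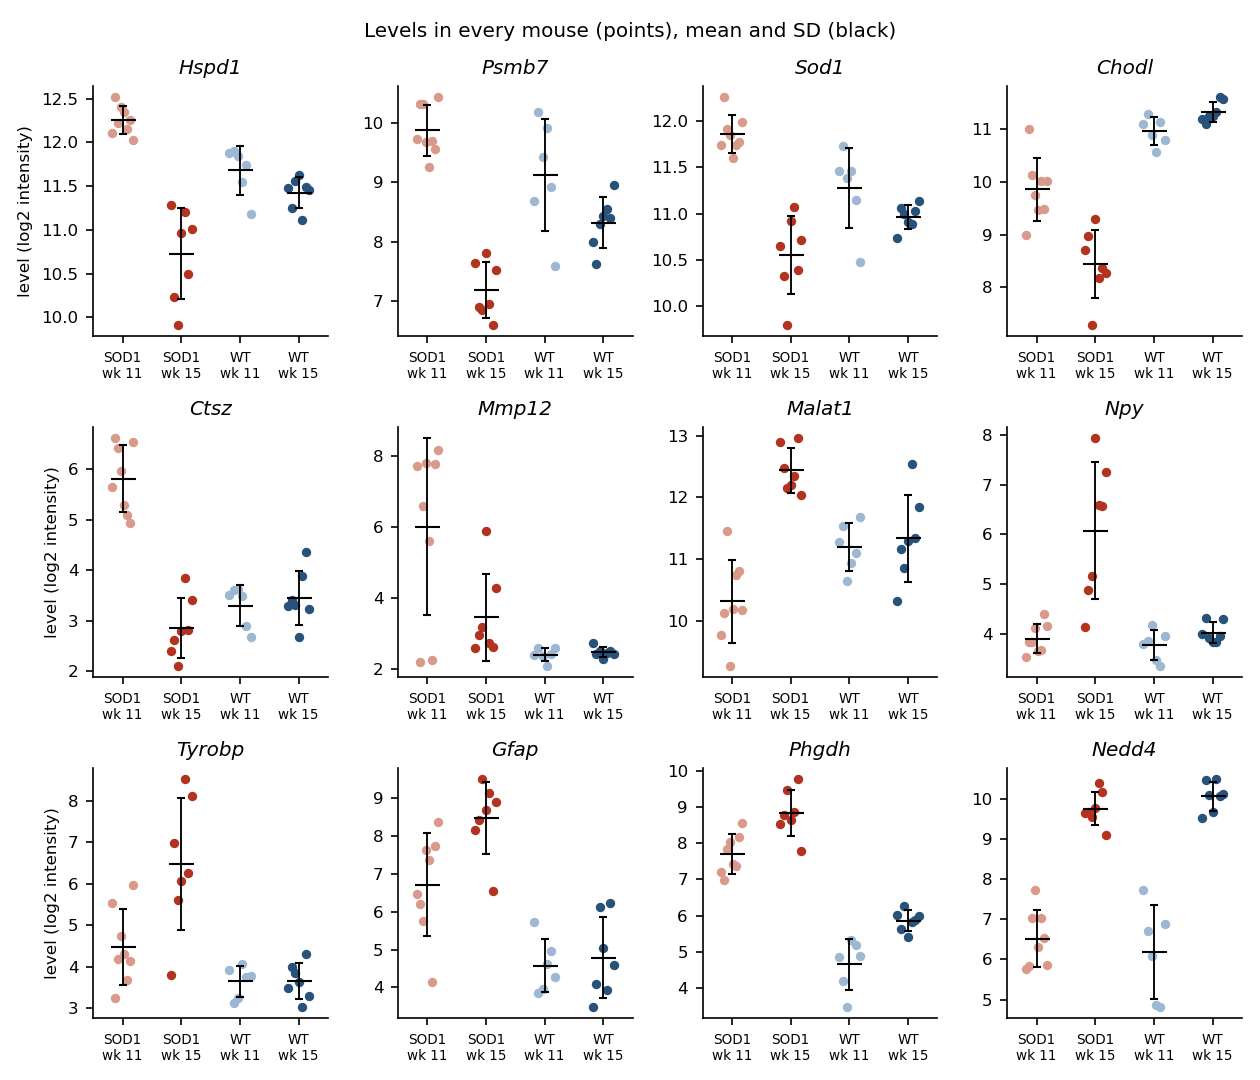
The log2 level of 12 genes (vertical axes) is plotted for every mouse as a point in the 4 groups, with the mean and SD in black. Hspd1, Psmb7, Sod1 and Ctsz fell and Malat1 rose without overlap of the SOD1 groups, Chodl, Mmp12, Npy, Tyrobp, Gfap and Phgdh overlapped, and Nedd4 rose in both genotypes.

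Transcripts of 1 gene often moved differently. Of 6586 genes with 2 or more tested transcripts, 1346 had at least 1 that rose, and in 22 of these every transcript rose (1.63%). For falls these numbers were 2622 and 239 (9.12%), and 433 genes had transcripts in both directions. Ube2d3, a ubiquitin-conjugating enzyme, fell at all 7 transcripts, by 0.71 to 2.4, and Polr1d, an RNA polymerase subunit, at all 4, by 0.87 to 2.4. Stx18, an ER syntaxin, fell at all 5, by 0.60 to 1.5.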

How the data were processed

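RNA of lumbar motoneurons collected by laser microdissection from 35 mice, 1 array per mouse, had been amplified and hybridised to Affymetrix mouse genome arrays. The deposited values were log2 intensities that the authors had normalized by GCRMA in Affymetrix Expression Console, as the submitters' processing notes name these tools without a version. Arrays have no read depth, so that precision depends on how many were run. Groups were taken from the sample titles. Of 45101 probe sets, 34945 named 1 gene, 932 named several and 9211 named none in the platform annotation, 64 were control probe sets, and 34754 of those naming 1 gene matched a gene number in RefSeq. Some genes were not analysed here.

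Probe sets were tested when they exceeded the 20th centile of all values (2.40) on at least 4 arrays and had a standard deviation at or above the 30th centile (0.241), which left 31352. Week 15 minus week 11 was estimated in SOD1 and in WT mice, with their difference as an interaction, in limma 3.58.1 (R 4.3.3) over all 5 groups, with Benjamini-Hochberg adjustment over all probe sets tested. The fifth group was that of the 7 SOD1 mice treated with G-CSF. Called meant p under 0.05, adjusted p under 0.1 and a fold of at least 1.5. On simulated data for the SOD1 week change (31352 probe sets), 16.4% of 67 probe sets changed by 1.5-fold, 46.3% of 67 changed by 2-fold and 92.4% of 66 changed by 4-fold were called. Measures of whole arrays were compared by exact permutation tests over mice, two-sided, adjusted over 14 tests.

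The 37 gene lists and the members were chosen with earlier results of these data known. Lists were read at the brightest tested probe set of a gene. The named genes were the 12 largest changes each way, the 8 largest differences from WT each way, the 5 largest changes each way shared with WT, up to 4 called members of each list, and fixed markers, of which Pecam1 did not pass the filter. Genes named beyond these, as other list members and genes with every transcript called, were chosen after their values were seen. Alternatives covered normalization, filters, a floor, the samples in the fit, the spread, the ANOVA with Tukey comparison of the methods, thresholds, covariates, a replicate block and arrays left out. The list counts after quantile normalization and without vehicle-treated mouse 3, and the comparison with brighter transcripts of a gene, were added after seeing the data.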

Additional observations from a re-analysis of the deposited data

Results flagged for a closer look

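Single mice stood far from the rest of their group in 36 of the 346 group values of named transcripts examined, where chance gives about 1 in 20 groups, or 5%. Of these, 11 belonged to vehicle-treated mouse 3. Values in parentheses are log2 levels of that mouse. Vehicle-treated mouse 3 lay below its group in Reep3 (3.4), Herc2 (2.4), Nefm (9.8), Eno2 (8.35), Prph (7.26), Hspb8 (5.28), Stip1 (3.18), Psmc5 (5.88), Atp5b (6.39), Sdhd (6.47) and Pkm (7.12). SOD1 mouse 1 of week 11 lay below its group in Slc1a3 (4.56), Asns (9.71), Rars (7.19) and Mapt (6.39) and lay above its group in Larp4 (8.61). SOD1 mouse 8 of week 11 lay below its group in Ugt8a (7.2), Kcnab1 (10.19) and Pabpn1 (11.14) and lay above its group in Mt3 (9.14) and Gpx1 (10.46). SOD1 mouse 2 of week 11 lay below its group in Klf7 (7.08), Ndrg1 (7.47) and Atf3 (4.71) and lay above its group in Nefm (13.28). Vehicle-treated mouse 5 lay below its group in Cebpg (4.04) and Mt3 (5.91) and lay above its group in Lcn2 (7.64). SOD1 mouse 3 of week 11 lay above its group in Mdm2 (6.56) and Chat (4.76). SOD1 mouse 5 of week 11 lay below its group in S100b (10.63) and Psmc5 (8.5). SOD1 mouse 6 of week 11 lay below its group in Mal (6.29) and lay above its group in Fmod (2.69). Vehicle-treated mouse 1 lay above its group in Rps6ka6 (6.87). Vehicle-treated mouse 6 lay above its group in Per2 (7.15).

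The week change of SOD1 mice differed from that of WT mice (limma interaction, adjusted p under 0.1 over all transcripts) in 46 named transcripts, of which 17 were also called without the 3 arrays that stood apart and 14 with each mouse left out in turn. Values in parentheses are the SOD1 change minus the WT change on the log2 scale. The difference was upward for Rabgap1l (2.63), Eif2d (2.22), Fmod (2.07), Malat1 (1.98), Dicer1 (1.96), Npy (1.92), Kcnq1ot1 (1.88), Ctxn2 (1.83) and Hnrnpa1 (1.83). It was downward for Gspt1 (-2.45), Crbn (-1.86), Sypl (-3.20), Mtch2 (-2.12), Mlf2 (-1.90), Ctsz (-3.11), Hspa4 (-2.77), Marf1 (-3.43), Ik (-2.95), Nek4 (-2.81), Cpsf2 (-2.75), Psme3 (-2.75) and Uchl1 (-1.38). Downward differences were also called for Eno2 (-1.24), Chodl (-1.78), Kcnq5 (-2.44), Mmp9 (-1.51), S100b (-0.73), Olig1 (-1.24), Cebpg (-1.74), Rars (-1.46), Nars (-1.21), Herpud1 (-1.15), Bag3 (-1.69), Stip1 (-1.25) and Hspd1 (-1.27). The remaining downward differences were those of Psmb7 (-1.90), Psmd7 (-1.54), Psmc5 (-1.69), Rnf11 (-1.69), Cacna2d3 (-1.03), Vamp1 (-1.23), Tuba4a (-0.81), H2-D1 (-1.46), Sod1 (-1.0), Larp4 (-1.60) and Med7 (-2.01).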

How the results depend on the processing

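The number of transcripts that rose in SOD1 mice (2724) was 1791 with a filter that required values over the array median, 1641 by the methods' ANOVA with Tukey comparison and 5566 at a minimum fold of 1.2. Transcripts that rose in WT mice (1033) numbered 1788 with array weights and 597 with the 18S covariate, and those that fell (710) numbered 1168 with only the groups of the comparison, 2039 with array weights, 423 at an adjusted p under 0.05 and 1329 without the 3 arrays that stood apart. Upward differences from WT (244) and downward differences (675) were 140 and 188 after quantile normalization, 19 and 120 at an adjusted p under 0.05, 1 and 2 with the 18S covariate, 49 and 230 with a covariate for the 3′ to 5′ ratio of a control transcript, and 43 and 159 without the 3 arrays. With each of the 28 mice left out in turn, the SOD1 counts were 2414 to 2946 risen and 4788 to 5426 fallen, and the WT counts were 848 to 1101 and 495 to 1066. The counts differing from WT were 28 to 378 upward and 155 to 912 downward, lowest without WT mouse 6 of week 11 and highest without vehicle-treated mouse 4 (upward) or 7 (downward). The cause of these shifts was not tested.

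Replicate numbers did not pair the mice, since same-numbered arrays had correlations of deviations from -0.128 to 0.017. With the number as a replicate block, upward and downward differences from WT were 155 and 465, SOD1 counts 2563 and 5093, and WT counts 1038 and 751.

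Among array measures, without the 3 arrays the SOD1 change of the 18S 3′ transcript was 0.973 (exact permutation test, adjusted p = 0.00593) and of the 5′ transcript 0.939 (adjusted p = 0.0245), and the WT changes of the array median and SD were 0.047 (adjusted p = 0.0053) and -0.044 (adjusted p = 0.00393). With single mice left out these were 0.454 to 0.966, 0.509 to 1.063, 0.007 to 0.047 and -0.044 to -0.001, and the SOD1 change in the 3′ to 5′ difference of a second control transcript was 0.471 to 0.772. The SOD1 change of the 173 named transcripts kept its side of the threshold in 149 to 173 under the single settings, and none of them changed direction. The interaction was lost in 44 of 46 with the 18S covariate, 33 at an adjusted p under 0.05, 32 without WT mouse 6 of week 11, 29 without the 3 arrays, 26 with the ratio covariate and 23 after quantile normalization. Dim transcripts limit the precision, because a value near the background of the array has no order.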

Other observations

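Long noncoding RNAs outside the lists were grouped after their values were seen. The 9 genes Malat1, Meg3, Xist, Rian, Mirg, Kcnq1ot1, Miat, Norad and Neat1 had 38 tested transcripts, of which 21 rose and 0 fell in SOD1 mice, with a median difference of 0.88. Among all tested transcripts naming 1 gene, 7.4% rose and 19.2% fell. Transcripts of 1 gene are repeated measures of it, and Meg3 alone had 11 of the 38. In WT mice 6 of the 38 rose and the median was 0.57, and the difference from WT was called upward in 4. Meg3, an imprinted noncoding RNA, rose by 1.37 at one bright transcript (SE 0.19, limma adjusted p = 4.2e-06), against 0.46 in WT mice, and 6 of its 11 transcripts rose, while the other 5 had differences from 0.21 to 0.83 and did not pass the test. Mirg, a host transcript of imprinted microRNAs, rose by 0.95 and differed from WT by 1.15 (adjusted p = 0.0654). Within Norad the tested transcripts differed by -0.51, 0.49 and 3.57, and the last of these, a dim transcript with a mean level of 4.06, rose, as it did in WT mice (3.1). The first, with a mean level of 11.37, fell short of the required fold at a limma adjusted p of 0.00391.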
